A study of Caenorhabditis elegans with 4 samples.

Results

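On chromosome IV of Caenorhabditis elegans, 222 of the 829 peaks of the transcription factor LIN-15B had their midpoint in the domains rich in piRNA genes, out of 4141 peaks in the whole list. The left domain, from 4.5 up to 7 Mb, held 104 of them and the right domain, from 13.5 up to 17.2 Mb, held 118. Membership was decided by position alone, so neither the strength nor the width of a peak entered the rule. The members and tests were, all the same, chosen with earlier results of these data known. The remaining 607 peaks of the chromosome served for comparison. Chromatin immunoprecipitation and sequencing (ChIP-seq) was done on whole hermaphrodites at the third larval stage (L3), grown at 20 °C. Strain OP184 carries the unc119(ed3) mutation and the transgene wgIs184, a lin-15B copy with TY1, EGFP and FLAG tags and an unc119 rescue marker, made by bombardment. All 4 libraries, 2 of ChIP DNA recovered with a goat antibody against GFP and 2 of input DNA, came from this strain, so the mutation and the transgene are shared by both groups. The 4 libraries were reduced by the authors to 1 combined list, which gives no value per replicate and leaves read depth unknown.

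piRNAs of the worm, called 21U-RNAs, are germline small RNAs bound by the Piwi protein PRG-1, which uses them to recognise and silence foreign transcripts. Most of their genes are very short transcription units, many with a conserved motif upstream of their own, packed into broad stretches of chromosome IV between and within other genes. LIN-15B has a THAP domain, a kind of zinc finger, and belongs with the synMuv B proteins, chromatin factors that hold back vulval fates and keep the soma from expressing germline genes. In the gene table of assembly WBcel235, chromosome IV carries 14714 of 15363 annotated piRNA genes (95.8%), whereas it carries 3281 of 19983 protein-coding genes (16.4%). That assembly is another build than WormBase WS180, on which the peaks are placed. Which piRNA gene or other gene lies at a given peak, and how many lie in each domain, was therefore not analysed here, and the domains are named by their bounds.

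LIN-15B peaks were sparser in the piRNA domains than elsewhere on the chromosome. The domains held 35.8 peaks per Mb (222 peaks in 6.2 Mb, 95% exact Poisson interval 31.3 to 40.8) and the rest of IV held 54.1 (607 peaks in 11.2 Mb, 49.9 to 58.6). The density in the domains was 0.661 times that of the rest (95% exact interval 0.564 to 0.772; exact binomial test, two-sided, adjusted by Benjamini-Hochberg over 6 tests, p = 2.2e-07). Peak regions covered 1.38% of the bases in the domains and 2.07% in the rest of IV.

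Both domains lay below the rest of the chromosome, and the right one was further below. In the right domain the density was 31.9 peaks per Mb (26.4 to 38.2), 0.589 times that of the rest (0.479 to 0.718; adjusted exact binomial p = 2e-07). In the left domain it was 41.6 (34.0 to 50.4), 0.768 times (0.618 to 0.947; adjusted exact binomial p = 0.016). The density on the left was 1.30 times that on the right, a difference that did not pass (0.992 to 1.71; adjusted exact binomial p = 0.055). The call for the left domain was lost with the domains widened by 250 kb at each end (0.908, adjusted exact binomial p = 0.32) and with the stronger peaks only, down to the middle rank of the list (0.784, adjusted exact binomial p = 0.11). It was lost against the stretch between the domains alone (0.824, adjusted exact binomial p = 0.096) and with q under 0.001 (0.796, adjusted exact binomial p = 0.056). It was also lost without the window at 4500001 to 5000000 (0.785), 5000001 to 5500000 (0.803) or 6000001 to 6500000 (0.822), with adjusted exact binomial p between 0.056 and 0.090. The difference between the domains, in turn, passed under 6 other settings of the peak set or bounds, among them q under 0.001 (1.48, adjusted exact binomial p = 0.016) and widened domains (1.39, adjusted exact binomial p = 0.0089). It moved further from the threshold with the domains narrowed (1.12, adjusted exact binomial p = 0.44). With each of 13 windows left out in turn it passed in 6 cases, the ratio running from 1.21 to 1.40 and the adjusted exact binomial p from 0.025 to 0.20. Over the whole list the density was 41.4 per Mb, close to that of the left domain. The other chromosomes had 44.1 (I), 40.4 (II), 58.9 (III), 33.1 (V) and 30.2 (X) peaks per Mb. Each domain thus lay within the range of whole chromosomes, and the rest of IV lay above all of these but III.

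Within the rest of IV, the section left of the domains was the densest, at 60.2 peaks per Mb (268 peaks). The section between the domains had 50.5 (328 peaks), and the short section on the right had 42.0, with 11 peaks in 262 kb. The domains were thus set against neighbours of unequal density, and differences among those sections were not tested. With only 262 kb beyond the right domain, lying in that domain cannot be told apart from lying near the right end of IV. Against the section between the domains alone, both domains together had 0.710 times its density (adjusted exact binomial p = 0.00021).

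Counts in windows of 500 kb showed how even the shortfall was. The 5 windows of the left domain held 19, 17, 26, 15 and 27 peaks from left to right. The 7 full windows of the right domain held 17, 14, 21, 20, 9, 16 and 12. They leave out its right end, where the windows of 100 kb beginning at 17000001 and 17100001 held 3 and 6 peaks. In the rest of IV the 22 full windows ran from 18 to 43 with a median of 26. None of the 7 right-hand windows exceeded 21 peaks, while 20 of the 22 windows outside the domains did. The groups overlapped all the same, since 2 windows outside held 21 or fewer, and 2 of the 5 left-hand windows reached the outside median. The emptiest window, at 15500001 to 16000000, held 9 peaks.

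**Figure D1:**
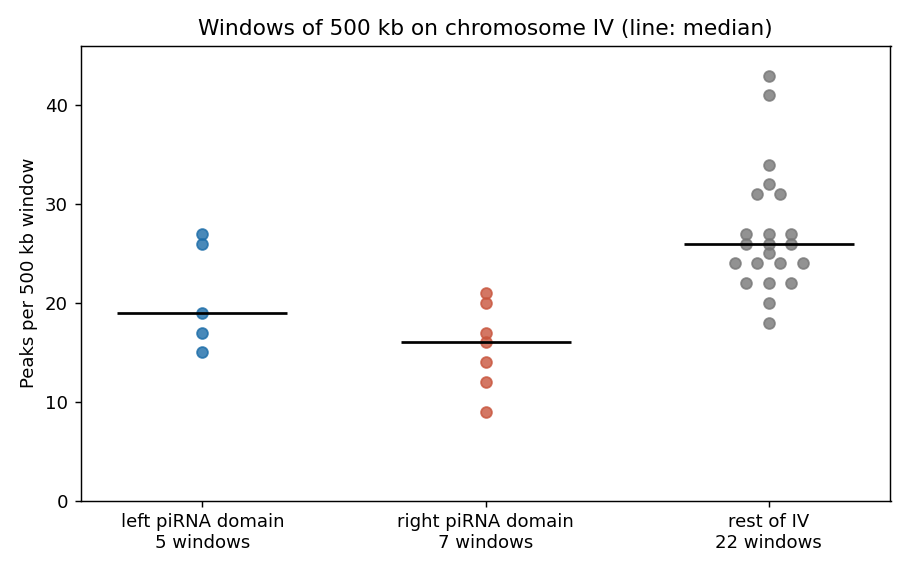
Number of LIN-15B peaks in each full 500 kb window of chromosome IV, by region. Points are windows and lines are medians (19 on the left, 16 on the right, 26 in the rest); all 7 right-hand windows lie at 21 or below.

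The exact binomial tests take peaks as independent. In windows of 100 kb the ratio of variance to mean was 1.80 in the domains (62 windows) and 1.75 in the rest of IV (112 windows), where independent placement at an even rate would give 1. The p-values may therefore be too small, to an extent that was not tested.

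Strong peaks, taken alone, were also sparser in the domains. The strength of a peak is here -log10 of its q-value as deposited by the authors, a measure that grows with read number and is not occupancy. Peaks with q under 1e-10 numbered 75 in the domains (12.1 per Mb) and 219 in the rest (19.5 per Mb), a ratio of 0.619 (0.470 to 0.808; adjusted exact binomial p = 0.00049). As a share of peaks this was 33.8% in the domains (95% exact interval 27.6% to 40.4%), 36.1% in the rest of IV (32.3% to 40.0%) and 36.1% in the whole list. The share of strong peaks among the domain peaks was thus close to the background. With q under 1e-20 in place of 1e-10 the lower density was not called (0.818, 0.578 to 1.14; adjusted exact binomial p = 0.26). With q under 1e-10 the left domain alone stood at 0.840 times the rest (0.586 to 1.18), an interval that includes equal density. The right domain alone stood at 0.470 times (0.318 to 0.677). With q under 1e-20 these ratios were 1.09 (0.695 to 1.66) and 0.632 (0.389 to 0.988). The ratios by domain were not among the 6 tests.

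Split into classes of q, the ratio was lowest for q between 1e-5 and 1e-20, although the intervals of all classes overlapped. Between 1e-5 and 1e-10 the domains held 6.45 peaks per Mb (40 peaks) against 12.2 (137), a ratio of 0.528 (0.362 to 0.756). Between 1e-10 and 1e-20 they held 3.71 (23 peaks) against 9.28 (104), a ratio of 0.400 (0.243 to 0.633). Among the weakest peaks, with q of 0.001 or more, the ratio was 0.735 (52 against 128 peaks, 0.522 to 1.02); 78.1% of the list had q under 0.001, and so did 76.6% of the domain peaks (170 peaks). Between 0.001 and 1e-5 it was 0.809 (55 against 123 peaks, 0.577 to 1.12). Between 1e-20 and 1e-50 it was 0.746 (33 against 80 peaks, 0.481 to 1.13). Under 1e-50, which 6.54% of the list reached, the domains held 3.06 peaks per Mb (19 peaks) and the rest 3.12 (35), a ratio of 0.982 (0.530 to 1.76). Differences between classes were not tested, and the interval of this last class, with 19 peaks, includes the ratio over all peaks.

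**Figure D2:**
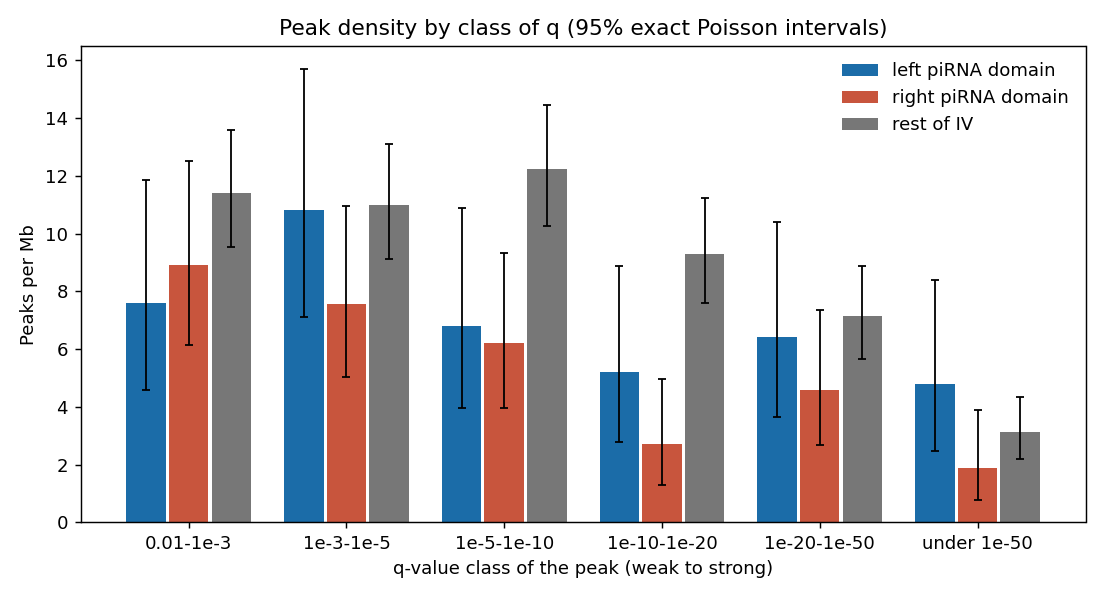
Peaks per Mb in 6 classes of q, from weak to strong, in the left domain, the right domain and the rest of IV. Bars are densities and error bars are 95% exact Poisson intervals; between 1e-10 and 1e-20 the right domain stands at 2.70 and the rest at 9.28, and under 1e-50 the left domain stands at 4.80 and the rest at 3.12.

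Strong peaks were called denser on the left than on the right, but not under every setting. This test, too, takes peaks as independent, so its p-value may be too small. How strong peaks cluster was not assessed. On the left 41 peaks had q under 1e-10 (16.4 per Mb), and on the right 34 did (9.19 per Mb), which is a ratio of 1.78 (1.11 to 2.90; adjusted exact binomial p = 0.016). They made up 39.4% of the left-hand peaks (30.0% to 49.5%) and 28.8% of the right-hand ones (20.8% to 37.9%), against 36.1% of the list. The call was lost without the window at 4500001 to 5000000, which held 12 of the 41. The ratio was then 1.58 (adjusted exact binomial p = 0.085), and with both domains narrowed by 250 kb at each end it was 1.25 (adjusted exact binomial p = 0.44). With q under 1e-20 it was 1.73, also not called (adjusted exact binomial p = 0.066).

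Median strength was 6.46 on the left (quartiles 3.29 and 20.7), 4.45 on the right (2.87 and 14.2) and 6.30 in the rest of IV (3.26 and 15.6). These are descriptions without a test. Strengths up to 3.20, the lower quartile of the whole list, were found in 32.2% of the right-hand peaks (38 peaks), 24.0% of the left-hand ones (25) and 24.2% of the rest (147). Peaks with q under 1e-50 numbered 12 on the left (4.80 per Mb), 7 on the right (1.89 per Mb) and 35 in the rest (3.12 per Mb). Of the few with q under 1e-100, a threshold that 1.09% of the list passed, 2 lay on the left, 4 on the right and 7 in the rest. The 100 strongest of all 4141 peaks included 2 of the 104 on the left and 7 of the 118 on the right. They also included 12 of the 607 in the rest.

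**Figure D3:**
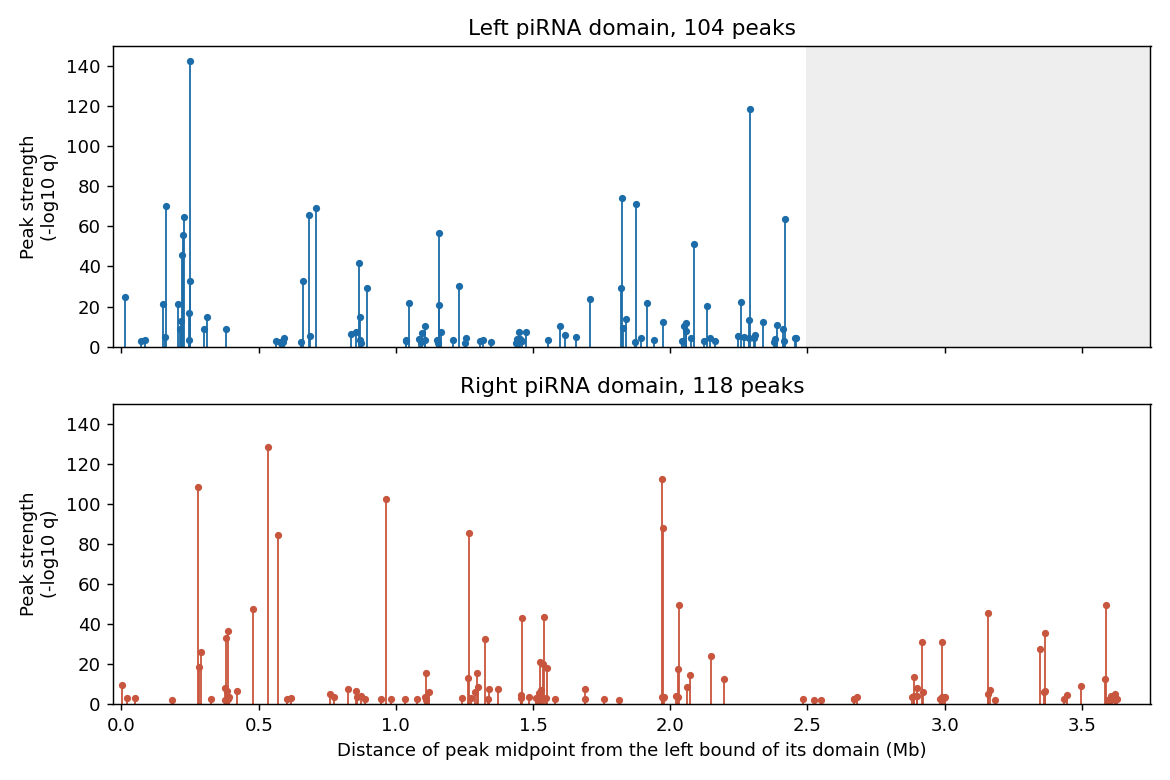
Strength (-log10 q) of every peak in the left domain (104 peaks) and the right domain (118 peaks) against the distance of its midpoint from the left bound of its domain. Grey marks positions beyond the 2.5 Mb of the left domain. The tallest peaks reach 143 on the left and 128 on the right. All 7 right-hand peaks above 50 lie within 1973 kb of the bound, and those of 49.7 lie further out.

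The strongest peak in the domains, and the third of the whole list, spanned 4749831 to 4750310 in the left domain, with a strength of 143. The second of the left domain lay at 6790364 to 6790850, with 118. A wide step followed. The third, at 6323614 to 6324090, had 73.9, the fourth, at 6376500 to 6376946, had 71.4, and the fifth, at 4660252 to 4660871, had 70.2. The others of the first 10 lay at 5209342 to 5209832 (69.2), 5183625 to 5184105 (65.5), 4727817 to 4728229 (64.7), 6919273 to 6919717 (63.5) and 5655847 to 5656509 (56.8). They were spread over the length of the domain and were 413 to 663 bp wide.

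In the right domain the strongest peak was also the widest of the chromosome. It spanned 14032417 to 14034588, 2172 bp, with a strength of 128, the ninth of the list. Next came 15471358 to 15471819 with 113, 13777443 to 13777926 with 109 and 14464009 to 14464441 with 103. The fifth, at 15472337 to 15472808, with 88.0, lay 0.984 kb from the second, midpoint to midpoint, so that 2 of the 100 strongest peaks of the list were next to each other here. The sixth and seventh lay at 14767622 to 14768065 (85.2) and 14070219 to 14071332 (84.5). The remaining 3 were weaker and much alike, at 15530525 to 15530917 (49.7), 17087297 to 17087833 (49.7) and 13979996 to 13980500 (47.7). The right domain thus had 7 peaks with q under 1e-50, and none from position 15500001 on. The peaks of 49.7 lay beyond that position and only just missed the threshold. This split was chosen after the values were seen and has no test.

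Peak widths differed little between the domains and the rest. The median was 359 bp on the left, 355 bp on the right and 355 bp in the rest of IV, with upper quartiles of 441, 441 and 440 bp. Wide regions over 1000 bp numbered 3, all in the right domain (2.54% of its peaks, 95% exact interval 0.527% to 7.25%), against 0 of 104 on the left and 9 of 607 in the rest (1.48%). Beside the 2172 bp and 1114 bp regions, at 14032417 and 14070219, the third was 1466 bp, at 16491231 to 16492696, with a strength of 31.3. A single region was under 50 bp, that at 14388231 to 14388237, 7 bp wide with a strength of 2.56, against 13 such regions in the rest of IV. Width followed strength in each part, with Spearman correlations of 0.657 on the left (104 peaks), 0.783 on the right (118) and 0.740 in the rest (607). Both quantities come from the same peak call, and peaks are not independent replicates.

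The lower density of the domains came with longer stretches without any peak. The median distance between neighbours, however, was close to that of the rest of IV as a whole. The median distance between neighbouring midpoints was 10.9 kb on the left, 9.86 kb on the right and 10.4 kb in the rest of IV. The upper quartile, by contrast, was 31.5 kb on the left and 37.7 kb on the right against 24.6 kb. The sections of the rest were unlike each other. Left of the domains the median was 7.36 kb and the upper quartile 20.7 kb, and between them 12.4 and 26.0 kb. In the short section on the right, with 10 pairs, they were 17.2 and 39.1 kb. Stretches over 100 kb numbered 4 on the left and 10 on the right, and 8 in all the rest of IV. They took up 22.5% of the bases of the left domain, 42.7% of the right and 9.20% of the rest. Pairs and stretches that cross a domain bound were left out of these distances, counts and shares. Among them was the stretch over 100 kb between 17126210 and 17249638, at the right end of the right domain. Spacing was described without a test, and binding too weak for the authors' calls cannot be seen in such stretches.

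**Figure D4:**
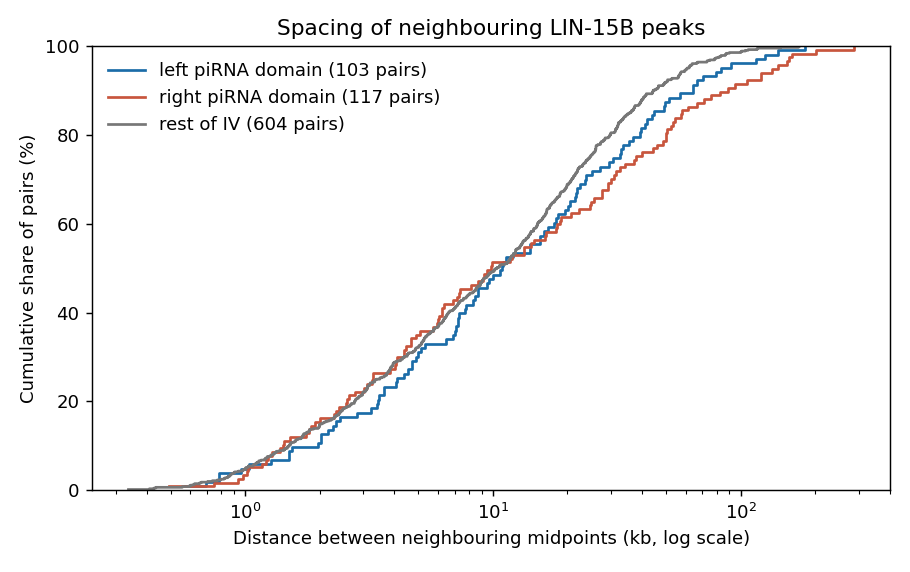
Cumulative share of neighbouring peak pairs by the distance between their midpoints (log scale) in the left domain, the right domain and the rest of IV. The curves run together up to about the medians (10.9, 9.86 and 10.4 kb) and part above them, with the right domain reaching the longest distances.

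The longest empty stretch in the domains, 15697161 to 15984250, measured 287 kb and was the sixth longest of the 4135 in the whole list. It ends at a weak peak, at 15984251 to 15984476, with a strength of 2.45. The next on the right, 16181217 to 16382286, measured 201 kb. On the left the longest were 4881009 to 5063415, at 182 kb, and 5395075 to 5535840, at 141 kb. The longest stretch in the rest of IV measured 172 kb, which lies between the lengths of the first and second on the left and below both of those on the right. In windows of 100 kb, 2 of 25 on the left and 4 of 37 on the right held no peak, against 4 of 112 in the rest. Those on the left began at 4900001 and 5400001, and those on the right at 15700001, 15800001, 16200001 and 16700001. No peak with q under 1e-10 was found in 6 of 25 on the left and 19 of 37 on the right, against 16 of 112 in the rest.

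At the other extreme were the fullest windows of 100 kb. The fullest 100 kb window on the left, beginning at 4700001, held 11 peaks, 8 of them with q under 1e-10. It contains the strongest peak of the domains, and its other peaks included 3 with strengths of 45.6, 55.9 and 64.7. The fullest on the right, beginning at 15000001, also held 11 peaks, 4 of them with q under 1e-10 and the strongest at 43.6. Outside the domains the fullest window of IV held 20.

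Close pairs made up shares of like size in the domains and in the rest of IV as a whole. Midpoints within 2 kb made up 11 of 103 neighbouring pairs on the left (10.7%, 95% exact interval 5.45% to 18.3%), 18 of 117 on the right (15.4%, 9.38% to 23.2%) and 89 of 604 in the rest (14.7%, 12.0% to 17.8%). The intervals overlap, and no test of the difference was made. A share within a fixed distance also depends on peak density, which was lower in the domains, and no allowance was made for that. Within the rest, the share was 19.5% left of the domains (52 of 267 pairs, 14.9% to 24.7%). It was 11.0% between them (36 of 327, 7.83% to 14.9%), and the short section on the right had 1 of 10. Runs of peaks linked by such distances numbered 9 on the left and 16 on the right, and none had more than 3 peaks, against up to 5 in the rest of IV.

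The 4 runs of 3 peaks differed in composition. That at 4747662 to 4750310 had strengths of 3.15, 32.6 and 143, and includes the strongest peak of the domains. That at 15471358 to 15474058 had 113, 88.0 and 2.87. The run at 15025316 to 15029168 had 21.1, 3.36 and 6.93, and that at 5368869 to 5371197 had 14.8, 3.21 and 2.02. In each of the 4, a peak with a strength under 4 lay beside one with a strength over 10. Of all 25 runs in the domains, 16 had at least 1 peak with q under 1e-10 and 3 had only such peaks. The other 9 had none. In the rest of IV 40 of 68 runs had at least 1, 5 had only such peaks and 28 had none. Runs with both kinds thus numbered 13 of 25 in the domains, 4 of them on the left, and 35 of 68 in the rest.

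Peaks in runs were also set beside lone peaks. In the domains the median strength was 6.77 for the 54 peaks in runs and 5.23 for the 168 others. In the rest of IV it was 4.85 for the 157 peaks in runs and 6.55 for the 450 others. On the left, taken alone, it was 6.03 for 20 peaks in runs and 6.46 for 84 others, and on the right 6.77 for 34 and 4.05 for 84. By the share with q under 1e-10, peaks in runs stood higher on the left too, at 45.0% against 38.1%, and on the right at 35.3% against 26.2%, while in the rest of IV they stood lower, at 31.8% against 37.6%. None of these values carries a test. Among the 10 strongest peaks, 7 on the left and 5 on the right had a neighbour within 5 kb, against 53 of all 104 left-hand peaks (51.0%) and 64 of all 118 right-hand peaks (54.2%).

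The peaks next to the bounds ranged in strength from 2.54 to 116. The peak nearest outside the left domain on its left lay 18.7 kb away, at 4481275 to 4481392, with a strength of 2.54, and the first inside lay at 4513473 to 4513872, with 24.8. At its right bound the last inside was at 6958744 to 6959112, with 4.28, and the next outside at 7012754 to 7013010, with 3.82. At the left bound of the right domain the last outside was at 13453509 to 13453870, with 13.0, and the first inside at 13502915 to 13503570, with 9.62. At its right bound the last inside was at 17126011 to 17126210, with 2.65. The next outside, at 17249638 to 17250077, had 116 and had rank 25 in the list, and its midpoint lay 49.9 kb beyond the bound. With both domains widened by 250 kb at each end, they held 289 peaks at 0.759 times the density of the rest, and with both narrowed they held 177 at 0.637 times (adjusted exact binomial p = 0.00041 and 2.5e-07). For the left domain alone the widened bounds gave 0.908 times, which was not called (adjusted exact binomial p = 0.32), and the narrowed ones 0.684 times (adjusted exact binomial p = 0.0024).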

How the data were processed

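Per the labels' protocols, L3 worms were crosslinked, sonicated and immunoprecipitated through the GFP tag; 2 ChIP and 2 input samples were sequenced as Illumina libraries. The authors deposited 1 combined list of regions with a q-value each. Per the file headers the build is WormBase WS180, and each line names PeakSeq. Not given in the sources used here are the aligner, settings, depth and way of combining replicates. The labels number the replicates by extraction.

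From the list, midpoints, widths and -log10 q were computed with pandas 2.3.3 and numpy 2.4.6 under Python 3.11.15; tests used scipy 1.17.1 and plots matplotlib 3.10.9. No region was left out. The rest of IV is the span between the outermost peaks of the chromosome, less the domains. Densities were compared by exact binomial tests, two-sided, of peak numbers against shares of bases, adjusted by Benjamini-Hochberg over 6 tests with a threshold of 0.05. Poisson, binomial and ratio intervals are exact, at 95%, and cover counting error only. The tests were tried on simulated positions, placed independently and at an even rate within each region. Such positions cannot show how the tests behave where peaks cluster. Strength, width and spacing were described without a test. Named peaks were the 10 smallest q per domain, regions over 1000 or under 50 bp, those nearest the bounds, runs of 3 or more within 2 kb, and the emptiest and fullest stretches. The members and tests were chosen with earlier results of these data known. As no WS180 genome was supplied, no gene or sequence was assigned to a peak; the gene table of WBcel235 gave numbers per chromosome only. Alternatives are given at the end.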

Additional observations from a re-analysis of the deposited data

How the results depend on the processing

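Of 66 alternatives to the 6 density ratios, 51 kept direction and side of the threshold (10 of them have the same value by construction), 9 lost a call, 6 gained one and none turned direction. Both domains against the rest (0.615 to 0.759) and the right domain against the rest (0.500 to 0.653) were called under all of theirs. The left domain against the rest was not called with q under 0.001 (0.796), the stronger peaks only, down to the middle rank of the list (0.784), domains widened by 250 kb (0.908), the stretch between the domains as the rest (0.824) or without the window at 6000001 to 6500000 (0.822). It was also not called without either of the windows at 4500001 (0.785) and 5000001 (0.803). Left against right was called with q under 0.001 (1.48), those stronger peaks (1.57), regions within 1 kb merged (1.36), domains widened (1.39), and regions under 50 bp (1.32) or over 1000 bp (1.34) left out. Of 13 single domain windows left out, an alternative chosen after seeing the data, 6 gave that call. For strong peaks, left against right was not called with domains narrowed (1.25), q under 1e-20 (1.73) or without the window at 4500001 to 5000000 (1.58), and both domains against the rest was not called with q under 1e-20 (0.818). Pairs within 1 kb made up 4.85% on the left, 3.42% on the right and 4.80% in the rest, and within 5 kb 31.1%, 35.0% and 32.1%. For the windows left out and the smaller sets of peaks, fewer peaks were tested; otherwise the cause was not tested. No paired analysis was possible because replicates were combined before deposit; for that reason none could be left out. Gene starts were not examined, as no WS180 annotation was supplied. As depth is unknown, weak binding between peaks cannot be assessed.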
